A study of Rattus norvegicus with 8 samples.

Results

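The receptors described here are Sstr4 and Sstr2, which bind somatostatin, Ntsr1, which binds neurotensin, and Npy1r, the Y1 receptor of neuropeptide Y. They were taken as the probe sets whose only gene symbol in the platform's annotation was 1 of these names. Each had 1 probe set, so 4 of the 379 probe sets of the deposited table were described. Habenula RNA of male Sprague-Dawley rats was measured on an Affymetrix whole-transcript microarray, with 1 array per rat. The 4 stressed rats, numbered 7, 8, 10 and 12, were restrained in envelopes of breathable film, 2 hours daily, for 14 days. The 4 non-stress rats, numbered 1, 3, 4 and 5, stayed in their home cages. Neither the age of the rats nor the time from the last restraint to dissection was analysed here.

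The habenula is a small epithalamic structure that relays forebrain signals to midbrain monoamine and interpeduncular neurons. Its medial part holds cholinergic and substance P neurons, and its lateral part holds mostly glutamatergic neurons. All of the receptors described here are G protein-coupled receptors of neuropeptides. The somatostatin receptors and the Y1 receptor couple to inhibitory G proteins, which lower cAMP and open inwardly rectifying potassium channels. The neurotensin receptor Ntsr1 couples mainly to Gq, which activates phospholipase C and raises intracellular calcium.

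The table had been chosen on these same arrays. In the authors' deposited table every unadjusted p-value was at most 0.0499 and every absolute log2 difference between the groups at least 0.26. The receptors were therefore bound to differ between the groups, and their differences are given as descriptions without a test. In the authors' deposited table the p-value was 0.0148 for Sstr4, 0.0340 for Sstr2, 0.0277 for Ntsr1 and 0.00780 for Npy1r. Of the 4 receptors, Sstr2 lay nearest to both limits of the table, with a log2 difference of -0.33. Probe sets outside the limits were not analysed here. The median log2 intensity of an array was 8.60 to 8.77. Of 26 symbols in a list of medial habenula markers, 12 were in the table, and the lowest single value among them was 7.94. In whole tissue, fewer cells of a type and less RNA per cell cannot be told apart.

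A link between promoter sequence and receptor signal was not tested. The windows around the RefSeq transcription start of each receptor gene are shown as a description. Each runs from 250 bases before the start to 50 bases after it, 5′ to 3′ on the gene's strand, in build GRCr8. Capitals mark matches on either strand to the cAMP response element (TGACGTCA), its core (TGACG), the CCAAT box (CCAAT) or the Sp1 site (GGGCGG).
Sstr4 promoter, chr3:156307742-156308041, plus strand: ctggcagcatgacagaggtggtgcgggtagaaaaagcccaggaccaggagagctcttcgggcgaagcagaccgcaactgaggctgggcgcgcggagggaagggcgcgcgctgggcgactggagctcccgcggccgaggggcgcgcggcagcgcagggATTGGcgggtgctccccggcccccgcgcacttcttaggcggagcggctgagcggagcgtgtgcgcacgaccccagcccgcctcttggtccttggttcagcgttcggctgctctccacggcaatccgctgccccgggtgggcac
Sstr2 promoter, chr10:99163103-99163402, plus strand: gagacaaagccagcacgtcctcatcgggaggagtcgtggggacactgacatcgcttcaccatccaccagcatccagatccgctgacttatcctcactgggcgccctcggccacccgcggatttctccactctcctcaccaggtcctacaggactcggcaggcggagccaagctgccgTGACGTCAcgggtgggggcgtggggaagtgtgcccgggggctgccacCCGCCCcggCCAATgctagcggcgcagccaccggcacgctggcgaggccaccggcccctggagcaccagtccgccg
Ntsr1 promoter, chr3:187983528-187983827, plus strand: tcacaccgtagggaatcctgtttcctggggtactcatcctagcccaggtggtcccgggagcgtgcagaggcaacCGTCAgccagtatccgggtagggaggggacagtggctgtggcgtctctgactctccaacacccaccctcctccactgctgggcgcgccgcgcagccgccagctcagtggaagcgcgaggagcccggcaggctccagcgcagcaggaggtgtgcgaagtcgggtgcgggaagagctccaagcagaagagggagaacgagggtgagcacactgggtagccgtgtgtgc
Npy1r promoter, chr16:27813338-27813637, minus strand: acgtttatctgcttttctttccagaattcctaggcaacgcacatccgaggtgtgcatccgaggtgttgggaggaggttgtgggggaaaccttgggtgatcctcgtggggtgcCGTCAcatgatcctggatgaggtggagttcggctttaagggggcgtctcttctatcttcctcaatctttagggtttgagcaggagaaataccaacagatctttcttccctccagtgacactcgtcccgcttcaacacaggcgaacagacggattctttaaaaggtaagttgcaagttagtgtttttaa

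The Sstr2 window held a full cAMP response element, from base -73 to base -66 before the start, where the core matched on both strands. It was the only full element in the 4 windows, and 1.83% of the 33469 rat promoter windows of this length held one. The Ntsr1 and Npy1r windows held the core alone, which was present in 21.2% of all windows. In the Sstr4 window only a CCAAT box was matched, a motif found in 37.5% of all windows. Sstr2 also had a CCAAT box, and it had an Sp1 site, as did 33.1% of all windows. No window of the 4 held the glucocorticoid response core (AGAACA, in 20.7% of all windows) or a TATA box (TATAAA, in 14.2%). The base composition differed: G and C made up 71.7% of the Sstr4 window, 68.7% of the Sstr2 window, 65.7% of the Ntsr1 window and 49.0% of the Npy1r window, with a median of 51.7% over all windows. These matches describe letters and are not shown to be bound sites.

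Both somatostatin receptors and the neurotensin receptor were lower in the stressed rats, and the Y1 receptor was higher. Stressed rats had 74.8% of the non-stress signal for Sstr4, 76.7% for Ntsr1 and 79.5% for Sstr2, and 129% for Npy1r. By the limma fit over the whole table, 3 receptors passed as lower and 1 as higher. The table's background was 55.4% lower and 44.6% higher, and together 100% of the probe sets passed, so nothing is read from these counts. The groups did not overlap for any of the 4 receptors as deposited, against 83.4% of the table. After quantile normalization over the table, which was tried after the values were seen, 2 of the 4 still did not overlap. The exceptions were Sstr2 and Npy1r. The share of the table without overlap in that setting is not given here, so nothing is read from this count.

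Sstr4, a somatostatin receptor of brain and lung, had log2 intensities of 9.47, 9.27, 9.30 and 9.29 in stressed rats 7, 8, 10 and 12, against 9.85, 9.97, 9.55 and 9.64 in non-stress rats 1, 3, 4 and 5. Stressed rat 7 was the highest of its group and non-stress rat 4 the lowest of its own, and 0.07 lay between them. The means were 9.33 ± 0.09 in stressed and 9.75 ± 0.19 in non-stress rats (SD, n = 4 each), a difference of -0.42 ± 0.10 (limma's standard error). This was the receptor with the largest change of the 4, and it stood at place 52 among the 210 lower probe sets by size.

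Sstr2, a somatostatin receptor widely expressed in brain, had 8.90, 8.86, 8.71 and 8.88 in stressed rats 7, 8, 10 and 12, against 9.27, 9.36, 8.91 and 9.14 in non-stress rats 1, 3, 4 and 5. Non-stress rat 4 lay only 0.01 above stressed rat 7, so the groups were barely apart. The means were 8.84 ± 0.09 in stressed and 9.17 ± 0.19 in non-stress rats (SD, n = 4 each), a difference of -0.33 ± 0.10. Its change was close to the median of the lower probe sets, which was -0.34.

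Ntsr1, the high-affinity neurotensin receptor, had 8.72, 8.72, 8.80 and 8.81 in stressed rats 7, 8, 10 and 12, against 9.22, 9.35, 8.88 and 9.12 in non-stress rats 1, 3, 4 and 5. The stressed rats lay within 0.09 of each other and the non-stress rats within 0.47. The means were 8.76 ± 0.05 in stressed and 9.14 ± 0.20 in non-stress rats (SD, n = 4 each), a difference of -0.38 ± 0.09.

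Npy1r, through which neuropeptide Y reduces anxiety-like behaviour in rodents, had 9.67, 9.60, 9.75 and 9.48 in stressed rats 7, 8, 10 and 12, against 9.21, 9.07, 9.41 and 9.32 in non-stress rats 1, 3, 4 and 5. Stressed rat 12 and non-stress rat 4 were the nearest of the 2 groups, 0.07 apart. The means were 9.63 ± 0.11 in stressed and 9.25 ± 0.15 in non-stress rats (SD, n = 4 each), a difference of 0.37 ± 0.09. By size it stood at place 52 among the 169 higher probe sets, whose median was 0.32.

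**Figure D1:**
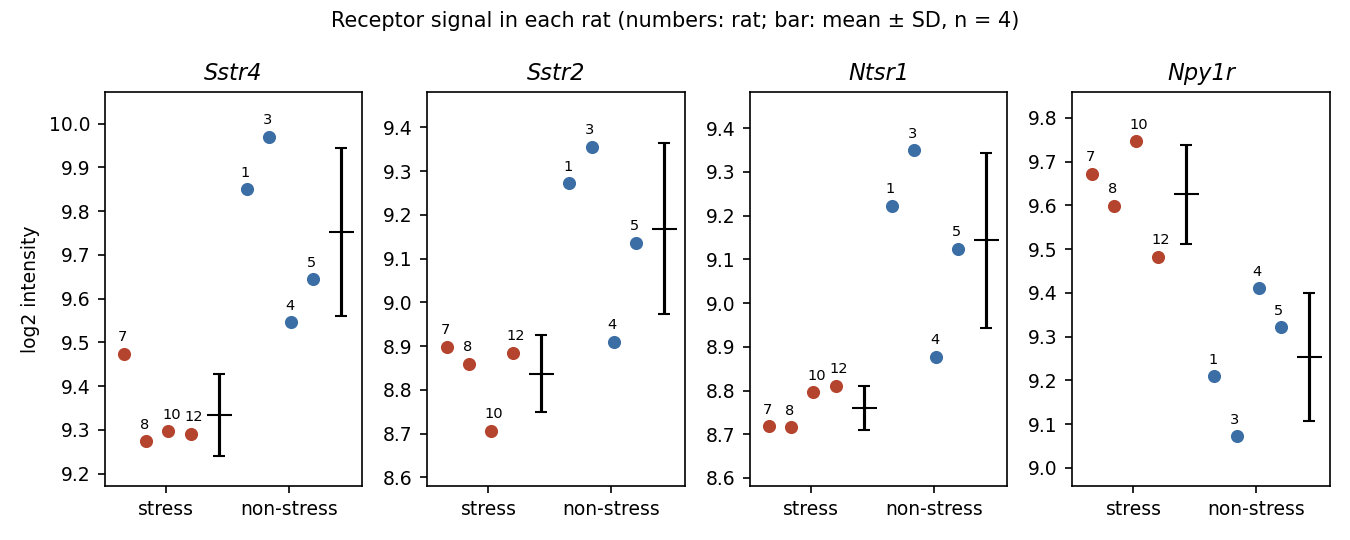
The log2 intensity of each receptor (y axis) in the stressed and non-stress rats (x axis), with 1 numbered point per rat and the mean ± SD of 4 rats as a bar. Stressed rats lie below non-stress rats for Sstr4, Sstr2 and Ntsr1 and above them for Npy1r, and non-stress rat 4 lies nearest to the stressed rats in all 4 panels.

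The non-stress rats were the more variable group for every receptor. The SD of the non-stress rats was 2.05 times that of the stressed rats for Sstr4, 2.19 times for Sstr2, 3.98 times for Ntsr1 and 1.30 times for Npy1r. Among the lower probe sets of the table, 162 of 210 likewise had the larger SD in the non-stress rats, with a median SD of 0.09 in stressed and 0.16 in non-stress rats. The wider spread of the 3 lower receptors was thus shared with most of the lower probe sets. Among the higher probe sets, where Npy1r belongs, the median SD was 0.10 in stressed and 0.11 in non-stress rats.

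Set against each other, the 3 lower receptors had changes of similar size. The change of Sstr4 minus that of Sstr2 was -0.09 ± 0.06, that of Sstr4 minus Ntsr1 was -0.04 ± 0.07, and that of Sstr2 minus Ntsr1 was 0.05 ± 0.06 (standard error of the per-rat difference, 4 rats a group). Each of these was below the SD of the per-rat difference between rats or just above it, 0.08 for Sstr4 and Sstr2, 0.10 for Sstr4 and Ntsr1 and 0.09 for Sstr2 and Ntsr1. With so few rats this does not show that the 3 changed alike. Npy1r parted from all 3 in direction. The change of Sstr4 minus that of Npy1r was -0.79 ± 0.18, that of Ntsr1 minus Npy1r -0.76 ± 0.18 and that of Sstr2 minus Npy1r -0.70 ± 0.19. Within a rat, Sstr4 signal minus Npy1r signal ran from -0.45 to -0.19 in stressed rats and from 0.14 to 0.90 in non-stress rats. These contrasts come from the comparison that chose the table and carry no test.

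How receptors vary together between rats of 1 group was not a criterion of the table, although the SD within groups entered the p-value that chose it. In the non-stress rats this variation followed the same division. Sstr4, Sstr2 and Ntsr1 had the same order there, highest in rat 3, then rat 1, rat 5 and rat 4. Npy1r had exactly the opposite order in these rats, highest in rat 4, then rat 5, rat 1 and rat 3. Non-stress rat 3 lay 0.22 above its group mean for Sstr4, 0.19 for Sstr2 and 0.21 for Ntsr1, and its Npy1r deviation was -0.18. Non-stress rat 4 deviated by -0.21, -0.26 and -0.27 for these 3 receptors and by 0.16 for Npy1r. The stressed rats shared no such order: Sstr4 and Sstr2 were highest in rat 7, Ntsr1 in rat 12 and Npy1r in rat 10.

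**Figure D2:**
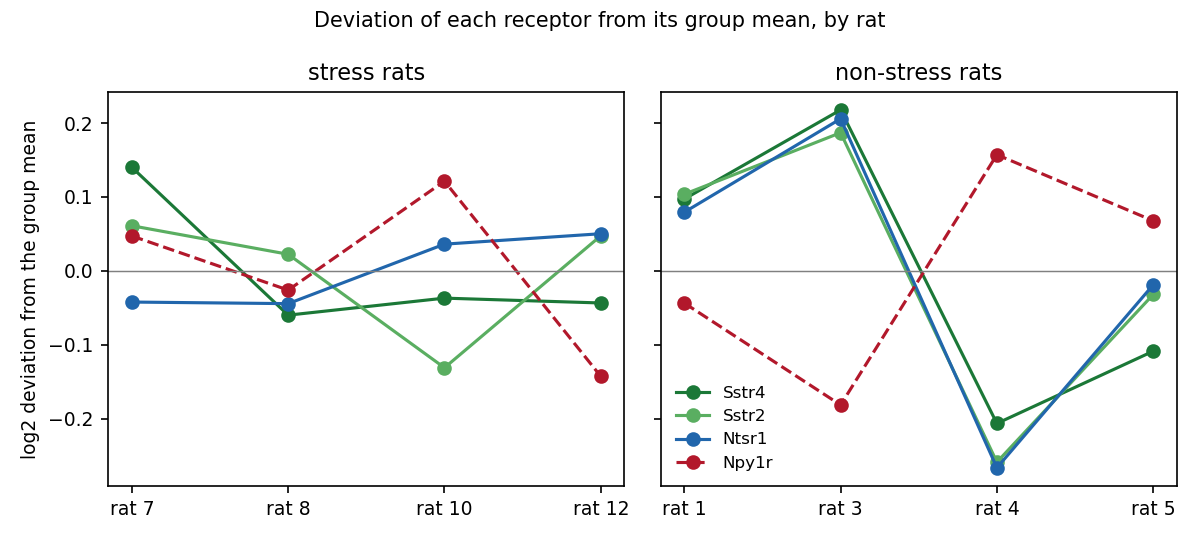
Deviation of each receptor from its group mean (y axis, log2) in the 4 stressed rats and the 4 non-stress rats (x axis), with 1 line per receptor and Npy1r dashed. In the non-stress rats Sstr4, Sstr2 and Ntsr1 run together and Npy1r runs against them, while the lines of the stressed rats cross.

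Correlations were computed on deviations from the group means over all 8 rats, with 2-sided exact permutation of rats within groups (smallest possible p 0.00174). The p-values were adjusted over all 1506 pairs of a receptor with another probe set of the table. None of the 6 pairs of receptors passed, against 0% of the 1506 pairs by Pearson's r and 0% by Spearman's rho. By Pearson's r even pairs at the smallest possible p had an adjusted p of 0.291. The absence of calls therefore does not show an absence of relations. At an unadjusted p under 0.05, 168 of the 1506 pairs (11.2%) passed by Pearson's r and 123 (8.17%) by Spearman's rho. Of the 6 receptor pairs, 2 did so by Pearson's r and 1 by Spearman's rho.

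Sstr2 and Npy1r had Pearson's r of -0.86 (exact permutation p = 0.0226, adjusted p = 0.406) and Spearman's rho of -0.88 (exact permutation p = 0.0312, adjusted p = 0.523). Their deviations fell on the same side of the group mean in 1 of 8 rats. Sstr4 and Sstr2, the receptors of 1 ligand, had r of 0.86 (exact permutation p = 0.0330, adjusted p = 0.431) and rho of 0.83 (exact permutation p = 0.0781, adjusted p = 0.537). They fell on the same side in 6 of 8 rats.

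The remaining pairs missed an unadjusted p of 0.05 by either measure. For Sstr2 and Ntsr1 r was 0.83 (exact permutation p = 0.0764, adjusted p = 0.441) and rho 0.71 (exact permutation p = 0.132, adjusted p = 0.544). For Sstr4 and Ntsr1 r was 0.78 (exact permutation p = 0.0833, adjusted p = 0.443) and rho 0.69 (exact permutation p = 0.151, adjusted p = 0.559). For Ntsr1 and Npy1r r was -0.77 (exact permutation p = 0.0556, adjusted p = 0.431) and rho -0.74 (exact permutation p = 0.0868, adjusted p = 0.537). For Sstr4 and Npy1r r was -0.62 (exact permutation p = 0.175, adjusted p = 0.524) and rho -0.62 (exact permutation p = 0.205, adjusted p = 0.596). Over the 8 rats together, the sign of all 6 pairs followed the direction of the group changes. Among the stressed rats alone, Sstr4 and Ntsr1, Sstr2 and Ntsr1, and Sstr4 and Npy1r leaned to the opposite sign.

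Leaving out the 2 rats farthest from the median of the first-named receptor, r was 0.81 for Sstr4 and Sstr2, 0.88 for Sstr4 and Ntsr1, 0.88 for Sstr2 and Ntsr1, -0.74 for Sstr2 and Npy1r and -0.58 for Sstr4 and Npy1r. For Ntsr1 and Npy1r, whose 2 rats were non-stress rats 3 and 4, r was -0.39, so the size of that relation rests on them. The pairs named first with Sstr4 left out stressed rat 7 and non-stress rat 3. Those named first with Sstr2 left out stressed rat 10 and non-stress rat 4. These pairs were not computed without both non-stress rats 3 and 4, so how far they rest on those rats was not tested. When the deviations were first divided by the SD of their group, r was -0.82 for Sstr2 and Npy1r, 0.68 for Sstr4 and Sstr2 and -0.59 for Ntsr1 and Npy1r. The other 3 pairs were weaker by more than 1.5 times, with r of -0.34 for Sstr4 and Npy1r, 0.24 for Sstr4 and Ntsr1 and 0.28 for Sstr2 and Ntsr1. The link of those 3 pairs lay only in the more variable non-stress group. Taken alone, the stressed group leaned to the opposite sign for each of them.

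**Figure D3:**
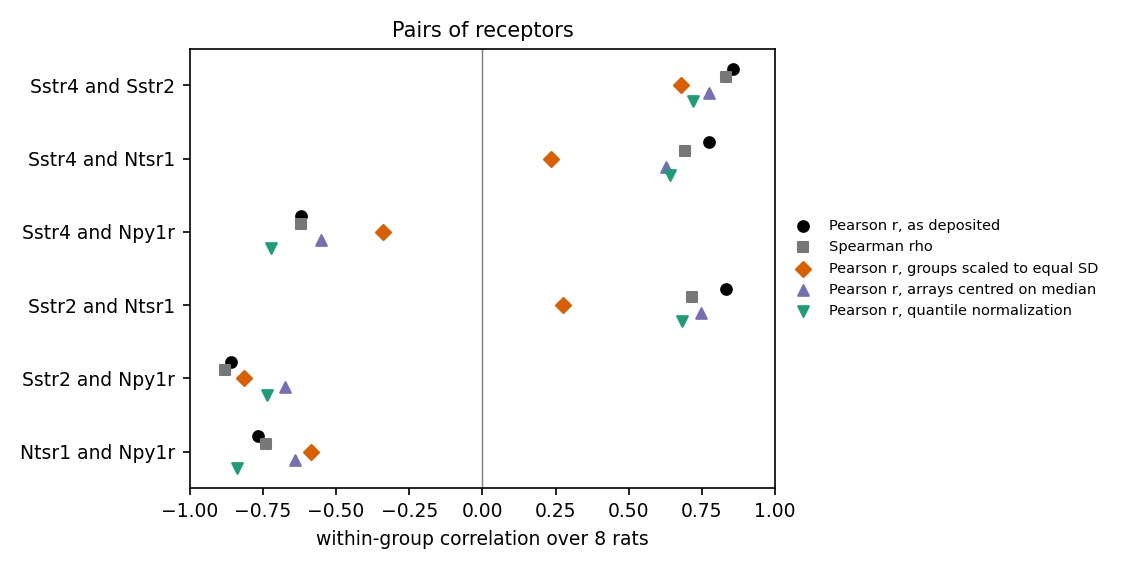
Within-group correlation over 8 rats (x axis) for the 6 pairs of receptors (rows), by Pearson's r as deposited, Spearman's rho and 3 other settings of Pearson's r. Pairs among Sstr4, Sstr2 and Ntsr1 lie above 0 and pairs with Npy1r below 0 in all 5 settings shown, and Sstr4 and Ntsr1 fall to 0.24 with groups scaled to equal SD.

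This covariation was common in the table. Across the other lower probe sets, the median r was 0.64 with Sstr4, 0.60 with Sstr2, 0.62 with Ntsr1 and -0.59 with Npy1r. Positive values with Sstr4 were found for 184 of 209 lower probe sets, and with Npy1r for 25 of 210. Against the higher probe sets the medians were -0.24 for Sstr4, -0.26 for Sstr2, -0.15 for Ntsr1 and 0.18 for Npy1r. The 3 lower receptors thus had mostly positive values with the lower probe sets, and Npy1r mostly negative ones.

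**Figure D4:**
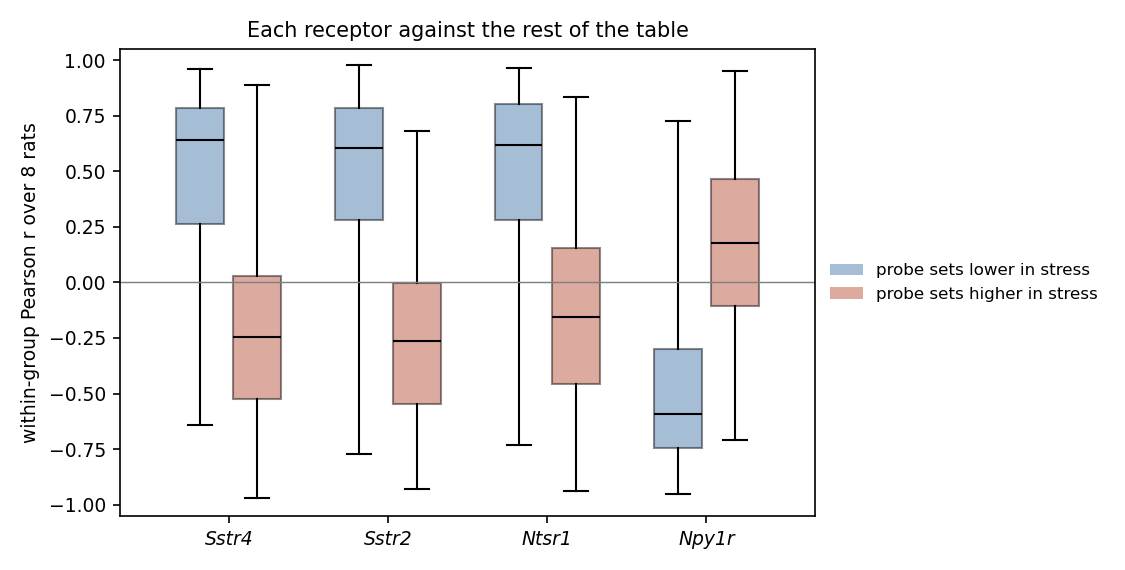
Within-group Pearson r over 8 rats (y axis) of each receptor (x axis) with the probe sets that were lower and those that were higher in stressed rats. Boxes span the quartiles with the median as a line, and whiskers reach the lowest and highest value. The median with lower probe sets is at or above 0.60 for Sstr4, Sstr2 and Ntsr1 and at -0.59 for Npy1r.

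Genes most like each receptor were named by the highest r over the 8 rats, as a description, since none of the 1506 pairs passed after adjustment (smallest adjusted p = 0.291). Closest to Sstr4 were the calcium channel subunit Cacna2d2 (r 0.96), the neuronal pentraxin Nptx1 (0.96), the phosphodiesterase Pde1a (0.94) and the transcription factor Ebf1 (0.93). Farthest from it was the sodium channel Scn7a (-0.97), whose signal was 0.64 higher in stressed rats. Closest to Sstr2 were the synaptotagmin Syt6 (0.98) and the orphan receptor Gpr151 (0.98), a marker of habenular neurons, both with the same rank order of deviations as Sstr2 over the 8 rats (rho 1.0). The immune receptor Cd180 (0.91) and the calcium-activated chloride channel Ano1 (0.90) followed, and the potassium channel Kcnk4 was farthest (-0.89).

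Ntsr1 was closest to the kinase Map3k6 (r 0.97), the GDNF family receptor Gfra1 (0.96), the tyrosine phosphatase Ptprr (0.95) and the transcription factor Neurod1 (0.94), and farthest from the cysteine-synthesis enzyme Cth (-0.94). Closest to Npy1r were the olfactory receptor Or2t47 (r 0.85), the RNA-editing enzyme Adarb1 (0.85), the fatty acid receptor Ffar3 (0.80) and the prostaglandin E receptor Ptger3 (0.79), all of them higher in stressed rats. Or2t47 was dim, at 7.15 ± 0.14 in stressed and 6.71 ± 0.20 in non-stress rats (SD, n = 4 each). Farthest from Npy1r was the potassium channel Kcnh8 (-0.94), at 8.56 ± 0.09 in stressed and 9.06 ± 0.23 in non-stress rats (SD, n = 4 each).

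The receptors were next set beside markers of the cells that a habenula dissection can hold, medial habenula neurons among them. All 12 medial habenula markers in the table, of 26 listed, were lower in stressed rats, against 55.4% of the table. Their median difference was -0.48. The listed markers outside the table were not analysed here. Their mean log2 level ran from 10.04 to 10.13 in stressed and from 10.37 to 10.86 in non-stress rats. The brightest of them were the nicotinic receptor subunit Chrna3 (12.26 ± 0.05 in stressed and 12.61 ± 0.13 in non-stress rats), the orphan receptor Gpr151 (11.41 ± 0.05 in stressed and 11.83 ± 0.18 in non-stress rats), the potassium channel regulator Lrrc55 (11.34 ± 0.16 in stressed and 11.83 ± 0.22 in non-stress rats) and the phosphodiesterase Pde2a (11.24 ± 0.05 in stressed and 11.62 ± 0.20 in non-stress rats). Each value is a mean ± SD with n = 4. From marker to marker, r ran from 0.56 to 0.92 with Sstr4, from 0.52 to 0.98 with Sstr2, from 0.69 to 0.93 with Ntsr1 and from -0.85 to -0.53 with Npy1r.

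Markers of hippocampal and dentate neurons, which lie beside the habenula, had 3 of 12 symbols in the table, namely Slc17a7, Nrgn and Neurod1. All 3 were lower, against 55.4% of the table, and their mean level ran from 10.46 to 10.55 in stressed and from 10.70 to 11.13 in non-stress rats. Of 10 lateral habenula symbols, Vgf and Pvalb were higher and Gpr151 lower, and their mean level ran from 9.9355 to 10.2200 in stressed and from 9.9305 to 9.9996 in non-stress rats. The endothelial transporters Slco1c1 and Slco1a4, 2 of 8 symbols, ran from 9.91 to 10.16 in stressed and from 10.28 to 10.37 in non-stress rats. The microglial genes Tmem119, which was higher, and Gpr34, which was lower, were 2 of 7 symbols, at 8.96 to 9.12 in stressed and 9.02 to 9.23 in non-stress rats. Lists for thalamic neurons, choroid plexus and ependyma, astrocytes and oligodendrocytes had 0 members in the table.

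Each receptor was set against the mean level of each of these 5 marker lists over the 8 rats. These relations were chosen after values were seen. None of the 20 passed after adjustment over all 20 by Pearson's r or by Spearman's rho, and 3 by r and 1 by rho had an unadjusted exact permutation p under 0.05. The medial habenula and the hippocampal lists gave similar values, so the covariation was not shown to be particular to medial habenula markers. Whether habenular neurons also express Slc17a7, Nrgn and Neurod1 was not tested, so the lists may not separate these cell types. For Ntsr1, r was 0.91 with the medial habenula level (exact permutation p = 0.0486, adjusted p = 0.236; rho 0.88, exact permutation p = 0.0278, adjusted p = 0.556) and 0.91 with the hippocampal level (exact permutation p = 0.0538, adjusted p = 0.236; rho 0.71, exact permutation p = 0.0781, adjusted p = 0.575). For Npy1r, r was -0.77 with the medial habenula level (exact permutation p = 0.0486, adjusted p = 0.236; rho -0.71, exact permutation p = 0.174, adjusted p = 0.575) and -0.79 with the hippocampal level (exact permutation p = 0.0382, adjusted p = 0.236; rho -0.60, exact permutation p = 0.184, adjusted p = 0.575).

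Sstr4 had r of 0.81 with the medial habenula level and 0.72 with the hippocampal level, and Sstr2 had 0.76 and 0.75 (exact permutation p from 0.101 to 0.158, adjusted p = 0.287 for all 4; rho from 0.38 to 0.76, each with an exact permutation p of 0.201 or more). With the mean level of the 2 microglial genes, r was 0.42 for Sstr4, 0.66 for Sstr2, 0.78 for Ntsr1 and -0.66 for Npy1r (adjusted p from 0.236 to 0.613). By gene, r with Tmem119 was 0.38 for Sstr4, 0.61 for Sstr2, 0.83 for Ntsr1 and -0.70 for Npy1r. With Gpr34 it was 0.05, 0.07, -0.06 and 0.05, so the values of the list came mostly from Tmem119. With the lateral habenula and endothelial lists, r ran from -0.22 to 0.38 over the 4 receptors (adjusted p from 0.613 to 0.931). For Sstr4, Sstr2, Ntsr1 and Npy1r, r was 0.90, 0.98, 0.91 and -0.83 with Gpr151 alone. With Vgf it was -0.80, -0.68, -0.74 and 0.59, and with Pvalb 0.09, -0.21, -0.12 and 0.53. The lateral habenula level thus averaged genes that ran in opposite directions, and Gpr151 is also in the medial habenula list.

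The medial habenula and hippocampal levels were both most extreme in non-stress rats 3 and 4. Leaving these rats out, r with the medial habenula level was 0.88 for Ntsr1, 0.35 for Sstr4, 0.16 for Sstr2 and -0.29 for Npy1r. With the hippocampal level it was 0.75 for Ntsr1, -0.33 for Sstr4, -0.15 for Sstr2 and -0.37 for Npy1r. The relations of Sstr4, Sstr2 and Npy1r to both levels thus rest on those rats. The part of these cell types in the receptor differences was not tested.

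The wider signalling pathway was covered by 127 symbols besides the 4 receptors, of which 6 were in the table, 3 higher and 3 lower in stressed rats. Their median difference was -0.02. The ligand Nts, the precursor of neurotensin, was higher while its receptor Ntsr1 was lower. Nts had 7.01, 7.11, 6.97 and 6.79 in stressed rats 7, 8, 10 and 12, against 6.76, 6.73, 6.79 and 6.52 in non-stress rats 1, 3, 4 and 5. Stressed rat 12 lay below non-stress rat 4, so the groups overlapped, with a difference of 0.27 ± 0.09. All of these Nts values were dim, below the array medians of 8.60 to 8.77. From rat to rat Nts and Ntsr1 had r of -0.24 (exact permutation p = 0.590, adjusted p = 0.816) and rho of -0.50 (exact permutation p = 0.196).

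Kcnj9, a subunit of the potassium channels that inhibitory G proteins open, was higher. It had 9.48, 9.70, 9.63 and 9.59 in stressed rats 7, 8, 10 and 12, against 9.02, 9.08, 9.37 and 9.34 in non-stress rats 1, 3, 4 and 5. The groups did not overlap, and the difference was 0.40 ± 0.09. Within groups it ran against Sstr4 (r -0.91, exact permutation p = 0.0382, adjusted p = 0.431; rho -0.90, exact permutation p = 0.0521). This was the strongest of its relations to the 4 receptors. With Sstr2, Ntsr1 and Npy1r, r was -0.77, -0.69 and 0.57 (exact permutation p = 0.0972, 0.193 and 0.220).

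The adenylyl cyclase Adcy1, which makes cAMP in neurons, was higher by 0.27 ± 0.08, at 11.25 ± 0.04 in stressed and 10.98 ± 0.14 in non-stress rats (SD, n = 4 each). Adcy10, the soluble cyclase that bicarbonate activates, differed by -0.31 ± 0.08, at 6.72 ± 0.11 in stressed and 7.03 ± 0.05 in non-stress rats. Tacr1, the substance P receptor, differed by -0.39 ± 0.11, at 8.51 ± 0.14 in stressed and 8.90 ± 0.25 in non-stress rats. Mme, the membrane peptidase neprilysin that cleaves several neuropeptides, differed by -0.39 ± 0.11, at 8.33 ± 0.14 in stressed and 8.72 ± 0.23 in non-stress rats, and its groups overlapped.

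**Figure D5:**
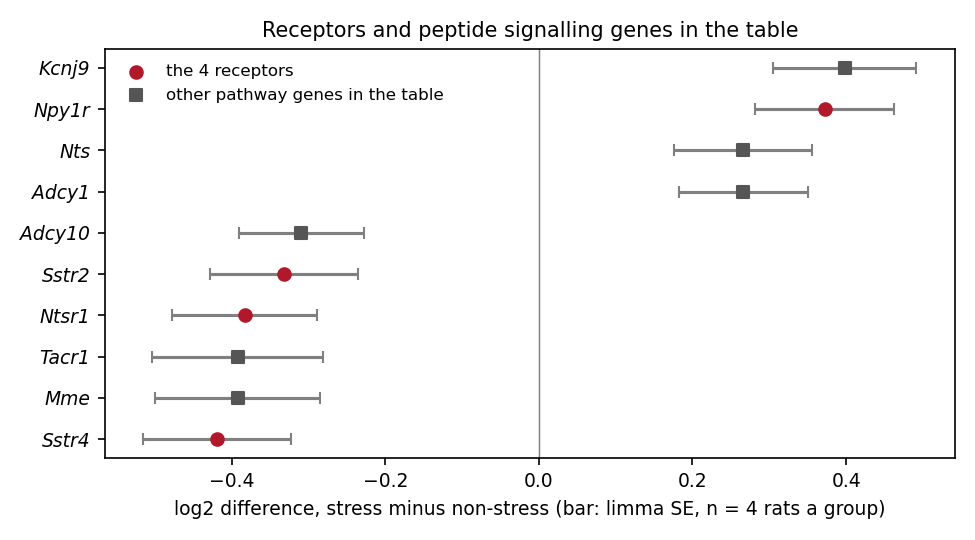
Log2 difference, stress minus non-stress (x axis), with limma's standard error as bars, for the 4 receptors and the 6 other pathway genes in the table (rows), 4 rats a group. Npy1r at 0.37 stands with Kcnj9, Nts and Adcy1 above 0, and Sstr4, Sstr2 and Ntsr1 stand with Tacr1, Mme and Adcy10 below 0.

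The genes of the ligands somatostatin, cortistatin and neuropeptide Y, the other somatostatin and neuropeptide Y receptors, and the listed inhibitory G protein subunits, RGS proteins, receptor kinases and arrestins were not among the chosen probe sets. That does not show that they were unchanged.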

How the data were processed

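Total RNA from the habenula of 8 rats was hybridised to 1 array per rat. Per the labels' protocols, target was made by whole-transcript amplification and labelled with biotin. The deposited unit is log2 intensity. How the authors corrected background, normalized and summarized is not given in the sources used, nor are scan dates, so a batch effect was not tested. The deposited p-value equals an unequal-variance p from the 8 values to within 1.64e-15, unadjusted. The 2 deposited tables agreed in all 379 probe sets, with a largest gap of 0.

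Gene names came from the platform annotation: 283 probe sets had 1 symbol, 5 several and 91 none. Promoter windows came from RefSeq (GRCr8) and were matched by gene ID for all 4 receptors. Differences and their standard errors came from limma 3.58.1 in R 4.3.3 over all 379 probe sets, unpaired, with Benjamini-Hochberg adjustment at 0.05. Correlations of deviations from group means used exact permutation within groups in Python 3.11.15. Both steps were tested on simulated data. The labels do not say whether the rats were handled in separate batches. Their number limits the precision.

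The receptors, gene lists and tests were chosen with earlier results of these data known. Genes named are the 4 receptors, the pathway genes in the table, the 4 genes with the highest and the 1 with the lowest r to each receptor, and up to 4 markers per list by level. Alternatives were array centring, quantile normalization, group medians, linear means, leaving out the dimmest 25% of probe sets, scaled deviations, and leaving out rats.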

Additional observations from a re-analysis of the deposited data

Results flagged for a closer look

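Of 20 group values of the receptors and pathway genes checked for 1 rat lying far from its group, 2 had such a rat. Chance flags about 1 in 20. Sstr4 was at 9.47 in stressed rat 7, against 9.27 to 9.30 in the other stressed rats. Without that rat the Sstr4 difference was -0.47. Adcy10 was at 7.11 in non-stress rat 3, against 6.997 to 7.007 in the other non-stress rats.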

How the results depend on the processing

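The 4 differences kept their direction in all 24 alternatives with every rat, moving by less than 1 SD between rats. Leaving out the dimmest 25% of probe sets and the unequal-variance standard error could not move a difference. Those alternatives therefore add nothing to this count. Leaving out each rat in turn gave -0.49 to -0.35 for Sstr4, -0.42 to -0.27 for Sstr2, -0.47 to -0.31 for Ntsr1 and 0.31 to 0.42 for Npy1r. Quantile normalization left 2 receptors without overlap, against 4 as deposited, and shifted the table's median difference by 0.04. The cause was not tested, and the share of the table without overlap in that setting is not given here. Without 1 rat, r ran from 0.74 to 0.89 for Sstr4 and Sstr2, 0.57 to 0.94 for Sstr4 and Ntsr1, 0.46 to 0.97 for Sstr2 and Ntsr1, -0.81 to -0.32 for Sstr4 and Npy1r, -0.92 to -0.78 for Sstr2 and Npy1r and -0.92 to -0.59 for Ntsr1 and Npy1r. The weakest values came without non-stress rat 3 or 4. No correlation passed after adjustment in any setting, so these tests say nothing about stability. Differences between changes kept their sign. No paired analysis was possible because the groups share no rat numbers.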
